A study of Mus musculus with 6 samples.

Results

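The genes described here are 51 genes of mitosis and of the G2-to-M transition, chosen by symbol from the 11452 gene symbols of a deposited expression table. All 51 were in the table, and all 51 passed the filter on low values. They were split by role into 8 groups: Cdk1 with its cyclins and regulators (6 genes), partners of the anaphase-promoting complex and ubiquitin ligases (4), spindle proteins (15), kinetochore and checkpoint proteins (8), the chromosomal passenger complex (3), cytokinesis (4), condensin and chromatin (8), and the nuclear envelope with Ran (3).

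The samples came from 4T1, a cell line of a mouse mammary tumour. KO pools were labelled knockout for Myo1e, which encodes the class I myosin motor myosin 1e, and WT pools were labelled wild type, with 3 libraries each. No other allele, treatment or time point is given in the labels, and the sources used here do not give how the knockout was made or the pools obtained. RNA was sequenced from stranded mRNA libraries, and the values are log2 CPM, the log2 of reads scaled to a common library size with a small prior added. The table's columns carry the numbers 1, 2 and 4 in each genotype. Names such as KO 4 or WT 4 join a library's genotype and its number. The labels do not say what the number stands for. The submitters call the samples biological replicates, but nothing says that the pools came from separate cultures, so p-values measure the spread between these libraries.

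Entry into mitosis is driven by the kinase Cdk1 bound to a B-type cyclin. Exit requires the anaphase-promoting complex, which marks cyclin B and securin for destruction. Between these events condensin compacts the chromosomes, the spindle captures them at kinetochores, a checkpoint holds anaphase until capture is complete, and the passenger complex and central spindle direct cytokinesis. Transcripts of many of these proteins peak in late G2 and mitosis. Their promoters often hold a cell cycle genes homology region (CHR), bound by MuvB-type complexes, with NF-Y boxes upstream of it, so that they are repressed together in resting cells and activated together in cycling cells.

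The promoters below are shown because they hold the arrangement that many of these genes share, or lack it while the transcript still differed strongly between libraries (Nuf2), or belong to genes whose transcript was not lower in the libraries numbered 4 (Nusap1 and Ect2). Each covers 150 bases before to 30 bases after the transcription start, 180 bases in all, from RefSeq on build GRCm38.p6, on the gene's own strand. Capitals mark the CHR (TTTGAA), its variant (TTTAAA) and the NF-Y box (CCAAT), in either orientation, so that ATTGG is an NF-Y box on the other strand. Ccnb1 lies at chr13:100786457-100786636 (minus strand), Cdk1 at chr10:69352883-69353062 (minus), Cdc20 at chr4:118437314-118437493 (minus) and Kif23 at chr9:61946770-61946949 (minus). The first of the 2 Ect2 starts lies at chr3:27153825-27154004 (minus), Nuf2 at chr1:169531435-169531614 (minus) and Nusap1 at chr2:119618148-119618327 (plus).
Ccnb1: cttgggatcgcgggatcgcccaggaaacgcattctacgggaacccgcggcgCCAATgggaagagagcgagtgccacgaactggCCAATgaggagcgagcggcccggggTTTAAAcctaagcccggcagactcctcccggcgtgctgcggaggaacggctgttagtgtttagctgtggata
Cdk1: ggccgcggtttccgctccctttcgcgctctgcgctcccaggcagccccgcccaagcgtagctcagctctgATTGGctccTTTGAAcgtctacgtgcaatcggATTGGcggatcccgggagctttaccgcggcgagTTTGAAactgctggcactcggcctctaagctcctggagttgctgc
Cdc20: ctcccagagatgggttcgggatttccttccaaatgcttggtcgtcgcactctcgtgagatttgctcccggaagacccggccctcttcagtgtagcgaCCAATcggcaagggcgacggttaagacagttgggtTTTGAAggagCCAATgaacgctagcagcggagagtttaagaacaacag
Kif23: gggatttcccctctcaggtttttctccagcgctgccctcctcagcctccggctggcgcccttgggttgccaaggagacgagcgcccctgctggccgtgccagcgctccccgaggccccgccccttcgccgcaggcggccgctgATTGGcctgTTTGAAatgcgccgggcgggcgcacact
Ect2: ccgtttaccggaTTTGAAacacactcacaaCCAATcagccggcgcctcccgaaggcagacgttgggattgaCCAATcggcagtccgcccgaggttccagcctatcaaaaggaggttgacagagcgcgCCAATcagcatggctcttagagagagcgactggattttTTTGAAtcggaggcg
Nuf2: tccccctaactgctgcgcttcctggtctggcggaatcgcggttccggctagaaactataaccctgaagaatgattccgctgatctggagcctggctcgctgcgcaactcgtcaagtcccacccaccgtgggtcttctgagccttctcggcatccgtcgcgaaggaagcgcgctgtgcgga
Nusap1: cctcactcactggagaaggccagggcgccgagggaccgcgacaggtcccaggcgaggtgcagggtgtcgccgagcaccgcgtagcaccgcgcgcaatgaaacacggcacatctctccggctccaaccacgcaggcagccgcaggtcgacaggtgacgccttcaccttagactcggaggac

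In Ccnb1, NF-Y boxes began 99 and 67 bases before the start and a CHR variant 42 bases before it. Cdk1 held CHR copies 71 and 15 bases before the start, with an inverted NF-Y box upstream of each. Cdc20 held a CHR 18 bases before the start between 2 NF-Y boxes. Nuf2 and Nusap1 held none of these letters in the window. Over the 45 of 51 genes with a RefSeq promoter, 27 (60.0%) held a CHR in this window, against 656 of the 8944 tested genes with a promoter (7.33%). An NF-Y box was present in 34 (75.6%), against 34.8% of tested genes. A CHR or its variant together with an NF-Y box was present in 26 (57.8%), against 4.1%. Of 62 other mitotic genes, 45.2% held a CHR, 59.7% an NF-Y box and 35.5% the combination. Of 31 S phase genes, 19.4% held a CHR, 64.5% an NF-Y box and 16.1% the combination. Among all 27025 promoters in the RefSeq table, 11.9% held a CHR in a window of the same length. A match is a description of the letters, not of a bound site, and the RefSeq start may not be the start used in 4T1 cells.

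**Figure D1:**
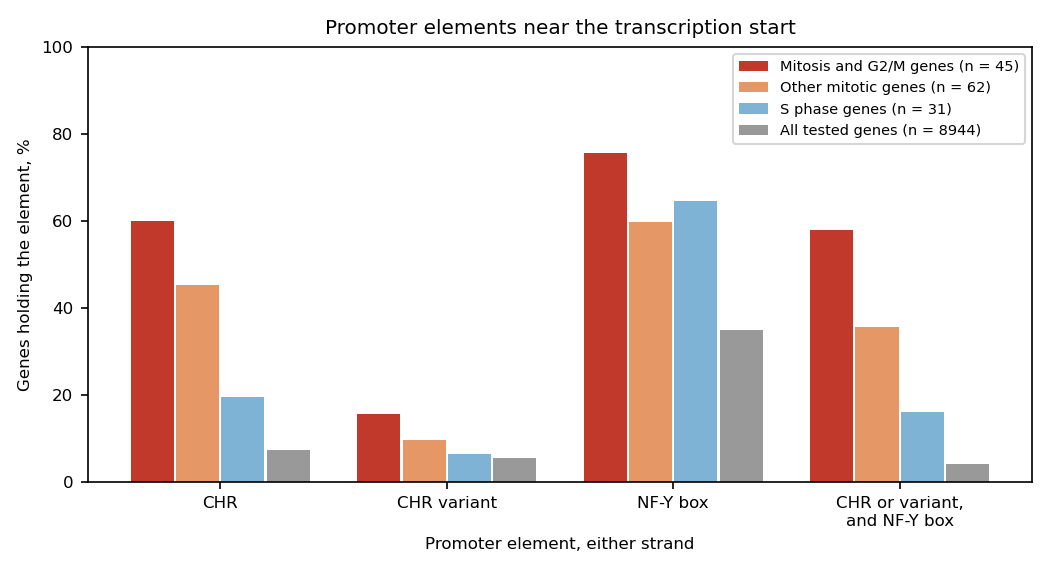
Bars give the percentage of genes whose promoter window (150 bases before to 30 after the start, either strand) holds each element, for the mitosis and G2/M genes, other mitotic genes, S phase genes and all tested genes. A CHR stands in 60.0% of the mitosis and G2/M genes, against 7.33% of all tested genes, and the bars of the NF-Y box lie closer together, at 75.6% against 34.8%.

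Reads recovered from the values numbered 17772003 to 19988206 per library, and the weakest of the 51 genes had at least 155 reads in every library. Myo1e (chromosome 9, 70207350 to 70399766, plus strand, ENSMUSG00000032220.10) was at 6.87, 6.81 and 6.81 log2 CPM in KO 1, KO 2 and KO 4, against 7.09, 7.02 and 6.91 in WT 1, WT 2 and WT 4. All KO libraries lay below all WT libraries, by 0.18 on average (SE 0.09, limma adjusted p = 0.9999). Among all tested genes, 1.59% had all KO libraries below all WT libraries. With the column number as a replicate block, the SE of the Myo1e difference was 0.05. Its unadjusted p in that limma fit was 0.00667, but the adjusted p of 0.316 did not pass the threshold. The table gives no check of the knockout beyond the level of Myo1e, since the edited position is not given. KO 4 and WT 4 stood apart from the other libraries: 33.8% of the 11269 tested genes were lower and 31.8% higher in them at an adjusted p under 0.05. All 12 epithelial markers were in the table. Their summed level was 3952 CPM in KO 4 and 4241 in WT 4, against 4686 to 5442 in the other libraries. By gene the list was mixed: 5 markers were lower and 6 higher in the libraries numbered 4, with a median difference of 0.09. The keratin genes Krt8 and Krt7 fell by 1.27 and 0.70 on the log2 scale, and Esrp1, an epithelial splicing regulator, rose by 1.34. Of 16 fibroblast markers 5 were in the table, with Col1a1, Dcn and Lum not among them. The 5 summed to 681.8 CPM in KO 4 and 599.5 in WT 4, against 677.0 to 875.8 in the other libraries. Fbln2 was at 9.04 to 9.62 log2 CPM in every library. Of 4 tested, Col6a1 and Pdgfra rose, by 1.05 (SE 0.13) and 0.38 (SE 0.14). Fbln2 fell by 0.31 (SE 0.10), and Postn did not pass the test (difference 0.37, SE 0.32). Of 16 leukocyte markers Cd68 and Cd74 were in the table, with a sum of 59.8 CPM in KO 4 and 71.6 in WT 4, against 11.3 to 34.5. Cd74 alone rose, by 2.37 (SE 0.40, limma adjusted p = 0.000659), and Cd68 was at -0.27 (SE 0.25, adjusted p = 0.36). Of 9 endothelial markers Flt1 and Eng were in the table. They summed to 152.3 CPM in KO 4 and 140.2 in WT 4, against 138.4 to 162.3 in the other libraries. The part of other cells in the results below was not tested.

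The mitosis and G2/M genes were lower in the libraries numbered 4 in both genotypes. They held 0.896% of all reads in KO 4 (95% Wilson interval 0.892 to 0.900) and 0.920% in WT 4 (0.915 to 0.924), against 1.21% in KO 1, 1.17% in KO 2, 1.20% in WT 1 and 1.19% in WT 2. These intervals cover counting error only. In the comparison of number 4 with numbers 1 and 2, adjusted for genotype, 45 of the 51 genes (88.2%) fell, against 33.8% of all tested genes, and 1 rose, Psrc1, against 31.8%. The median difference was -0.53 on the log2 scale, so that the level fell by 30.7%, against 0.00309 over all tested genes. In each of the 45 genes that fell, KO 4 and WT 4 both lay below the other 4 libraries. That held for 37.0% of all tested genes. In 2 genes, Psrc1 and Nusap1, they both lay above, against 35.8% of all tested genes. In RNA from whole pools, fewer cells in G2 and mitosis cannot be told apart from less of these transcripts per cell.

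**Figure D2:**
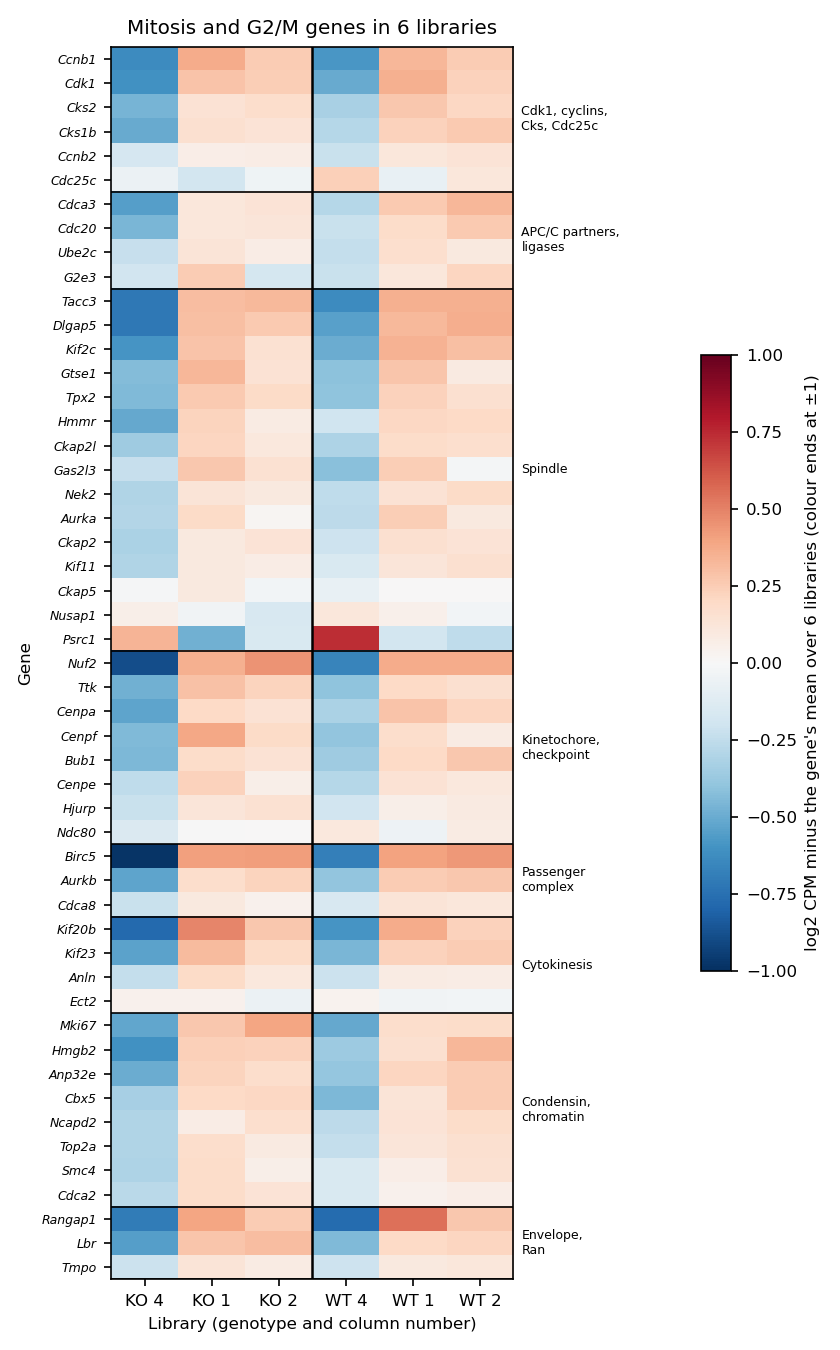
Each row is a gene, grouped by role, and each column a library, with KO on the left. Colour gives log2 CPM minus the gene's mean over the 6 libraries, and the colour scale ends at 1 in either direction. KO 4 and WT 4 are blue in most rows, and Psrc1 is red in both.

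Cdk1 and its partners fell in 5 of 6 genes, with a median difference of -0.59. Ccnb1, which encodes the cyclin B1 that activates Cdk1, had a log2 CPM of 6.58 in KO 4 and 6.63 in WT 4, against 7.58 and 7.46 in KO 1 and KO 2 and 7.54 and 7.46 in WT 1 and WT 2. The number 4 libraries lay well below the rest, at a difference of -0.91 (SE 0.06, 95% interval -1.04 to -0.78, limma adjusted p = 1.68e-06). Cdk1 itself was at 7.53 in KO 4 and 7.64 in WT 4, against 8.42 and 8.38 in KO 1 and KO 2 and 8.49 and 8.37 in WT 1 and WT 2. This is a difference of -0.83 (SE 0.06, adjusted p = 2.54e-06). Cks1b and Cks2, small Cdk-binding proteins, fell by 0.59 each on the log2 scale. Ccnb2, the other B-type cyclin of the group, fell less, by 0.29 (SE 0.05). The exception was Cdc25c, the phosphatase that removes the inhibitory phosphates from Cdk1. Its level was 4.91 in KO 4 and 5.21 in WT 4, against 4.79 and 4.93 in KO 1 and KO 2 and 4.90 and 5.09 in WT 1 and WT 2. KO 4 lay within the range of the other libraries and WT 4 above it, and the difference of 0.13 (SE 0.09, 95% interval -0.07 to 0.33) did not pass the test (adjusted p = 0.21). It passed as higher when scaled to total reads (difference 0.24). Of the exonic bases of Cdc25c, 12.7% overlap Gm3550 on the opposite strand.

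All 4 genes of the ubiquitin group fell, with a median of -0.43. Cdc20, the activator of the anaphase-promoting complex, had a log2 CPM of 7.23 in KO 4 and 7.46 in WT 4, against 7.80 and 7.80 in KO 1 and KO 2 and 7.86 and 7.94 in WT 1 and WT 2. The difference was -0.51 (SE 0.05, adjusted p = 3.97e-05). Cdca3, a substrate adaptor that promotes mitotic entry, was at 5.17 in KO 4 and 5.44 in WT 4, against 5.84 and 5.87 in KO 1 and KO 2 and 5.99 and 6.06 in WT 1 and WT 2. It fell by 0.63 (SE 0.06, adjusted p = 2.1e-05). Ube2c, the ubiquitin-conjugating enzyme of the complex, fell by 0.35. G2e3, a ubiquitin ligase, gave the weakest call of the group. Its level was 5.47 in KO 4 and 5.44 in WT 4, against 5.92 and 5.49 in KO 1 and KO 2 and 5.78 and 5.88 in WT 1 and WT 2. KO 2 lay within 0.1 of both number 4 libraries, and the difference of -0.31 (SE 0.11, adjusted p = 0.0312) was lost when KO 1, KO 4, WT 2 or WT 4 was left out (adjusted p = 0.0838, 0.0755, 0.0525 and 0.254) or when values were scaled to total reads (adjusted p = 0.146).

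Of the 15 spindle genes, 12 fell, 1 rose and 2 did not pass the test, with a median of -0.49. Tacc3, which crosslinks the microtubules of kinetochore fibres, had the smallest p of the 51 genes. It had a log2 CPM of 6.55 in KO 4 and 6.64 in WT 4, against 7.58 and 7.60 in KO 1 and KO 2 and 7.63 and 7.63 in WT 1 and WT 2. Its level in the number 4 libraries fell by 50.3% (difference -1.01, SE 0.05, adjusted p = 4.58e-07). Dlgap5, another protein of kinetochore fibres, was at 5.68 in KO 4 and 5.85 in WT 4, against 6.69 and 6.65 in KO 1 and KO 2 and 6.72 and 6.76 in WT 1 and WT 2, a difference of -0.94 (SE 0.06). The microtubule-depolymerising kinesin Kif2c fell by 0.82. Tpx2, which activates the kinase Aurora A on spindle microtubules, fell by 0.63, and Aurka, which encodes that kinase, by 0.41. Kif11, the motor that separates the spindle poles, fell by 0.34.

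Psrc1 was the gene that rose. Psrc1 protein acts with a microtubule-depolymerising kinesin on the spindle. Its transcript had a log2 CPM of 3.83 in KO 4 and 4.22 in WT 4, against 3.01 and 3.34 in KO 1 and KO 2 and 3.31 and 3.23 in WT 1 and WT 2. The level in the number 4 libraries was 74.8% higher (difference 0.81, SE 0.13, adjusted p = 0.000493). Ckap5, a microtubule polymerase, was at 8.10 in KO 4 and 8.03 in WT 4, against 8.21 and 8.09 in KO 1 and KO 2 and 8.12 and 8.12 in WT 1 and WT 2. KO 4 lay within the range of the others, and the difference of -0.06 (95% interval -0.19 to 0.06) did not pass the test (adjusted p = 0.309). Nusap1, which bundles spindle microtubules, was at 6.90 in KO 4 and 6.95 in WT 4, against 6.80 and 6.68 in KO 1 and KO 2 and 6.88 and 6.81 in WT 1 and WT 2. Both number 4 libraries were the highest, but KO 4 exceeded WT 1 by little, and the difference of 0.13 (SE 0.06) had an adjusted p of 0.0754. It passed the threshold when scaled to total reads (difference 0.24), under quantile normalization (0.23) and without WT 1 (0.15).

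Kinetochore and checkpoint genes fell in 7 of 8 cases, with a median of -0.61. The outer kinetochore proteins Nuf2 and Ndc80 bind each other in the complex that attaches microtubules, and their transcripts differed in size of change. Nuf2 had a log2 CPM of 5.48 in KO 4 and 5.71 in WT 4, against 6.72 and 6.82 in KO 1 and KO 2 and 6.74 and 6.74 in WT 1 and WT 2. It fell by 1.16 (SE 0.07, adjusted p = 1.25e-06), so that its level fell by 55.3%. Ndc80 was at 6.37 in KO 4 and 6.62 in WT 4, against 6.51 and 6.52 in KO 1 and KO 2 and 6.46 and 6.60 in WT 1 and WT 2. KO 4 was the lowest and WT 4 the highest of the 6, and the difference of -0.03 (SE 0.07, 95% interval -0.19 to 0.13) did not pass the test (adjusted p = 0.726). Per kilobase of annotated exon, the mean level of Nuf2 was 2.93 log2 CPM per kb in the libraries numbered 4 and 4.09 in those numbered 1 and 2, and that of Ndc80 was 3.79 and 3.82. The difference between the differences of these 2 genes was not tested.

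The checkpoint kinase Bub1 had a log2 CPM of 6.46 in KO 4 and 6.55 in WT 4, against 7.09 and 7.05 in KO 1 and KO 2 and 7.11 and 7.17 in WT 1 and WT 2, a difference of -0.60 (SE 0.05, adjusted p = 1e-05). Ttk, the checkpoint kinase upstream of it, fell by 0.66. Cenpa, the histone variant that marks the centromere, was at 6.76 in KO 4 and 6.97 in WT 4, against 7.49 and 7.43 in KO 1 and KO 2 and 7.57 and 7.50 in WT 1 and WT 2. It fell by 0.63 (SE 0.06). Hjurp, the chaperone that deposits this variant, fell by 0.31 (SE 0.05). The kinetochore motor Cenpe fell by 0.40 and Cenpf by 0.63.

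All 3 genes of the chromosomal passenger complex that are among the 51 fell, to different extents, with a median of -0.69. Birc5, which encodes survivin and links the complex to centromeric chromatin, had the largest drop of the 51 genes. It had a log2 CPM of 6.11 in KO 4 and 6.41 in WT 4, against 7.50 and 7.51 in KO 1 and KO 2 and 7.50 and 7.52 in WT 1 and WT 2. The other 4 libraries lay within a narrow band, and the difference was -1.25 (SE 0.07, 95% interval -1.40 to -1.09, adjusted p = 8.41e-07) and the level fell by 57.9%. The kinase subunit Aurkb was at 6.11 in KO 4 and 6.25 in WT 4, against 6.82 and 6.87 in KO 1 and KO 2 and 6.90 and 6.91 in WT 1 and WT 2, a difference of -0.69 (SE 0.05, adjusted p = 5.43e-06). The subunit Cdca8, also called borealin, was at 6.80 in KO 4 and 6.86 in WT 4, against 7.12 and 7.07 in KO 1 and KO 2 and 7.15 and 7.13 in WT 1 and WT 2. Its difference was -0.29 (SE 0.05, adjusted p = 0.000735), the smallest among the 45 genes that fell.

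In the cytokinesis group 3 of 4 genes fell, with a median of -0.55. Kif23, the motor of the centralspindlin complex, had a log2 CPM of 7.35 in KO 4 and 7.42 in WT 4, against 8.20 and 8.07 in KO 1 and KO 2 and 8.11 and 8.14 in WT 1 and WT 2, a difference of -0.75 (SE 0.06, adjusted p = 4.96e-06). Kif20b, a kinesin of the midbody, was at 6.52 in KO 4 and 6.71 in WT 4, against 7.79 and 7.57 in KO 1 and KO 2 and 7.67 and 7.53 in WT 1 and WT 2, a difference of -1.03 (SE 0.08). Anln, a scaffold of the contractile ring, fell by 0.34 (SE 0.06). Ect2, which activates RhoA at the division site and binds centralspindlin, was at 8.20 in KO 4 and 8.19 in WT 4, against 8.19 and 8.09 in KO 1 and KO 2 and 8.12 and 8.12 in WT 1 and WT 2. KO 1 lay at the same height as the number 4 libraries, and the difference of 0.06 (95% interval -0.06 to 0.18) did not pass the test (adjusted p = 0.321). It passed as higher when scaled to total reads (difference 0.17) and under quantile normalization (0.24).

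All 8 condensin and chromatin genes fell, with a median of -0.50. Mki67, which encodes the proliferation marker Ki-67 on the chromosome surface, had a log2 CPM of 8.78 in KO 4 and 8.79 in WT 4, against 9.57 and 9.69 in KO 1 and KO 2 and 9.47 and 9.48 in WT 1 and WT 2. It fell by 0.77 (SE 0.06, adjusted p = 7.51e-06). Anp32e, a histone chaperone, was at 7.88 in KO 4 and 7.99 in WT 4, against 8.60 and 8.56 in KO 1 and KO 2 and 8.60 and 8.63 in WT 1 and WT 2, a difference of -0.66 (SE 0.05). Hmgb2, a DNA-bending chromatin protein, fell by 0.73 and the heterochromatin protein gene Cbx5 by 0.59. The condensin subunits Smc4 and Ncapd2 fell by 0.34 (SE 0.06) and 0.42 (SE 0.05), and Top2a, the topoisomerase that untangles sister chromatids, by 0.40 (SE 0.06). Cdca2, which targets a protein phosphatase to chromatin at mitotic exit, was at 6.01 in KO 4 and 6.12 in WT 4, against 6.46 and 6.41 in KO 1 and KO 2 and 6.32 and 6.34 in WT 1 and WT 2. Its call (difference -0.32, adjusted p = 0.00202) was lost without KO 4 (adjusted p = 0.0602).

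The nuclear envelope and Ran genes all fell, with a median of -0.75 over 3 genes. Rangap1, the GTPase activator of Ran, had a log2 CPM of 6.92 in KO 4 and 6.84 in WT 4, against 8.01 and 7.87 in KO 1 and KO 2 and 8.16 and 7.88 in WT 1 and WT 2, a difference of -1.10 (SE 0.08, adjusted p = 5.15e-06). Lbr, the lamin B receptor, was at 6.95 in KO 4 and 7.05 in WT 4, against 7.77 and 7.81 in KO 1 and KO 2 and 7.70 and 7.71 in WT 1 and WT 2. It fell by 0.75 (SE 0.06). Tmpo, a lamina-associated protein of the envelope, fell by 0.32 (SE 0.05).

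Over the 51 genes the size of the difference varied widely. In 5 genes (Birc5, Nuf2, Rangap1, Kif20b and Tacc3) the drop exceeded 1 on the log2 scale. In 23 it lay between 0.5 and 1, and in 17 between 0.25 and 0.5. Spearman's rho across the 51 genes between this difference and exonic length was 0.127, against 0.0921 across 11159 tested genes with a length, and these genes share libraries. A CHR or its variant stood together with an NF-Y box in 24 of the 40 lower genes with a promoter (60.0%), and in 2 of the 5 others (40.0%). Nuf2, Birc5 and Tacc3, all among the 5 largest drops, held none of the 3 elements in the window, and Rangap1 and Kif20b held a CHR without an NF-Y box. Ect2 and Ckap5, neither of which passed the test, held a CHR and NF-Y boxes. These promoters were picked out after their values were seen.

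The drop was seen within each genotype. KO 4 and WT 4 carry the same number and deviated together from their genotype means. The correlation was 0.921 across all tested genes and 0.952 across the 51. Whether these libraries are independent of each other is not known, so the 2 genotypes cannot be read as replication of the drop. The p-values for number 4 do not measure how far another such pair would vary. Within KO, 44 genes fell and 1 rose, against 27.7% and 24.2% of all tested genes, with a median of -0.57 over the 51 genes. Within WT, 43 fell and 1 rose, against 26.2% and 23.4%, with a median of -0.52. Each of these contrasts sets 1 library against 2, so the lone library is assumed to vary like the others. G2e3 did not pass the test in either genotype (adjusted p = 0.259 in KO and 0.0785 in WT), and Cdca2 did not pass the test within WT (adjusted p = 0.0614). Across the 51 genes the difference in KO and that in WT had a Spearman's rho of 0.939, which was not computed over all tested genes. Without KO 1 the count within KO was 35 lower and 0 higher.

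**Figure D3:**
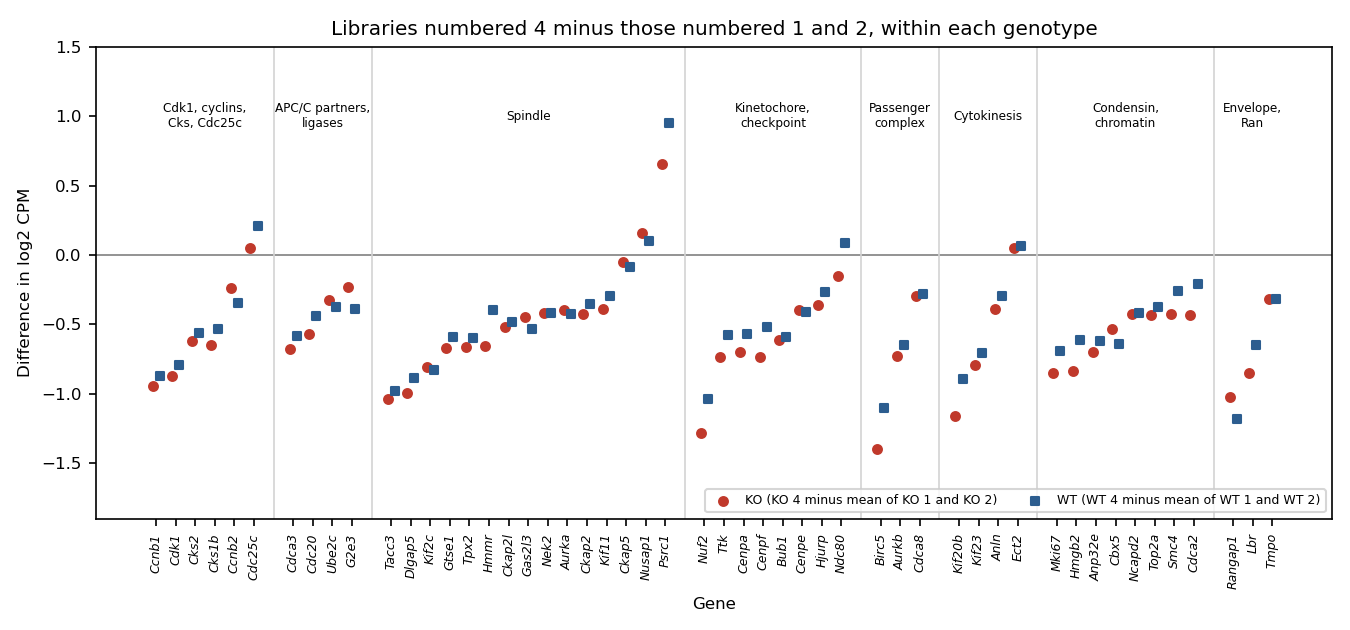
The vertical axis gives the difference in log2 CPM between the library numbered 4 and the mean of those numbered 1 and 2, for KO (circles) and WT (squares), for each gene grouped by role. Both symbols lie below 0 for most genes, from -1.40 (KO) and -1.10 (WT) in Birc5 to 0.66 (KO) and 0.95 (WT) in Psrc1.

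The difference was lower in KO than in WT in 40 of 51 genes, against 52.3% of all tested genes. Over all 51 genes, the difference in KO minus that in WT had a median of -0.08 on the log2 scale, against -0.01 over all tested genes. No gene passed the test of the difference between genotypes at an adjusted p under 0.05, either among the 51 or among the 11269 tested (limma, lowest adjusted p among the 51 of 0.997). At an unadjusted p under 0.05 it was 1 of the 51, Birc5, against 3.9% of all tested genes. Birc5 fell by 1.40 in KO and by 1.10 in WT, a difference between them of -0.30 (95% interval -0.53 to -0.06, unadjusted p = 0.0205). The next members by p were Hmmr, which binds spindle microtubules, at -0.26 (95% interval -0.53 to 0.01), and Nuf2 at -0.25 (-0.52 to 0.02). With 2 residual degrees of freedom the standard errors of this contrast were 0.0997 to 0.257, and no difference of this size passed the adjusted threshold.

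KO minus WT within a column number was between -0.40 and 0.21 for every one of the 51 genes. No member of the 51 was called between genotypes (limma, adjusted p under 0.05), as for all 11269 tested genes, and none passed at an unadjusted p under 0.05, against 0.204% of all tested genes. Voom on the recovered reads called none either. The mean difference, KO minus WT, ran from -0.20 in Cdca3 to 0.13 in Gas2l3, with a median of -0.05, against -0.01 over all tested genes. It lay below 0 in 37 of the 51 genes, against 52.9% of all tested genes, and within 0.1 of 0 in 40 of the 51. The share of all tested genes within 0.1 of 0 was not computed. In 0 genes did the KO libraries all lie below or all above the WT libraries, against 1.59% and 2.04% of all tested genes. The standard error had a median of 0.24 in this fit, in which KO 4 and WT 4 lie far from the other libraries of their genotype. With the column number as a replicate block it was 0.05, and still none of the 51 was called, against 0.00887% of all tested genes called lower and 0 higher. Without the libraries numbered 4 none was called and the median was -0.03. With KO 4 left out the median was 0.15, and with WT 4 left out it was -0.19.

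In the pairs numbered 1, 2 and 4, KO was below WT in 24, 36 and 42 of the 51 genes, against 50.1%, 50.3% and 53.3% of all tested genes. The median differences were 0.01, -0.04 and -0.08. In 32 genes the difference was lowest in number 4, a count for which no share over all tested genes was computed. KO was below WT in all 3 pairs in 17 of the 51 genes, against 1911 of the 11269 tested genes (17.0%). It was above in all 3 in 1 of the 51, Gas2l3, against 1753 (15.6%). These counts come from the same 6 libraries in every gene and were not tested. By comparison, library 2 minus library 1 had a median of -0.05 within KO and 0.01 within WT.

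**Figure D4:**
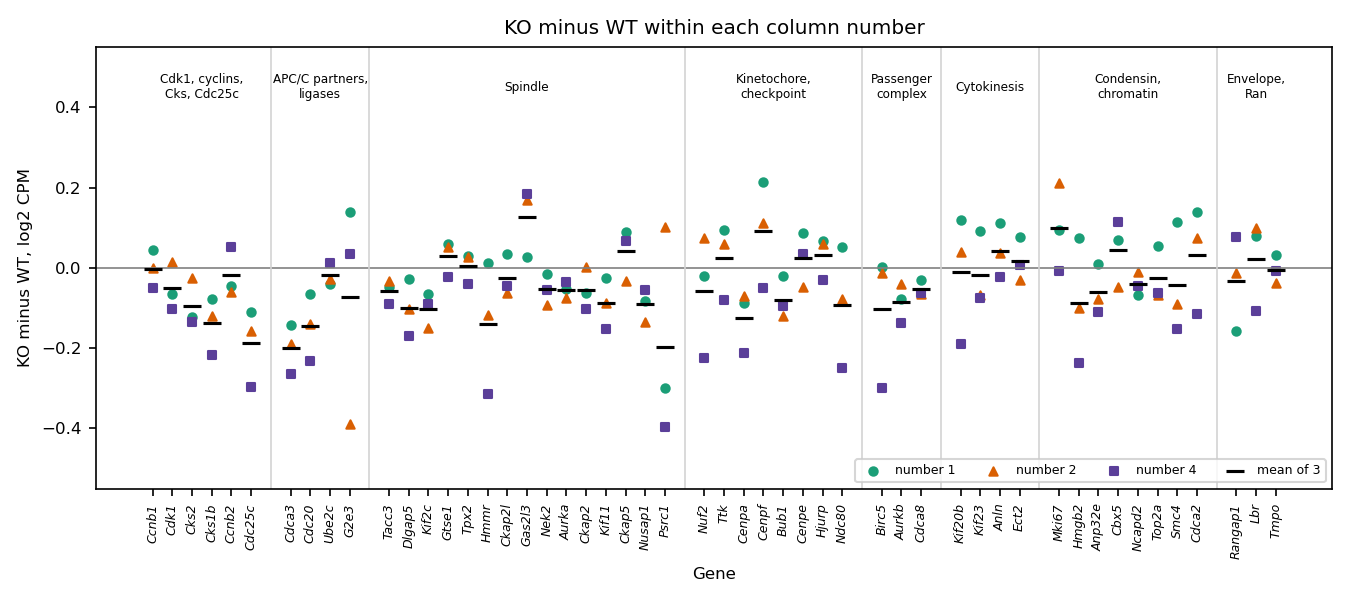
The vertical axis gives KO minus WT in log2 CPM within column number 1 (circles), 2 (triangles) and 4 (squares), with a bar at the mean of the 3, for each gene grouped by role. The values lie between -0.40 and 0.21, and the squares lie below 0 in 42 of 51 genes.

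By role, KO minus WT had medians of -0.07 in the Cdk1 group (6 of 6 genes below 0), -0.11 in the ubiquitin group (4 of 4), -0.05 among spindle genes (11 of 15) and -0.02 among kinetochore genes (4 of 8). It was -0.09 in the passenger complex (3 of 3), 0.00344 in cytokinesis (2 of 4), -0.03 in condensin and chromatin (5 of 8) and -0.00453 in the envelope group (2 of 3). No gene in any of these groups passed the test.

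The lowest mean difference was that of Cdca3, which was at 5.84, 5.87 and 5.17 log2 CPM in KO 1, KO 2 and KO 4, against 5.99, 6.06 and 5.44 in WT 1, WT 2 and WT 4. KO was lower in each pair, by 0.14, 0.19 and 0.27, and the groups overlapped because both number 4 libraries were low. With the replicate block the difference of -0.20 had a 95% interval of -0.33 to -0.07 and an unadjusted p of 0.00701, but an adjusted p of 0.327. Cdc20, Cks1b, Cdc25c and Cenpa also had an unadjusted p under 0.05 in that fit, at -0.15, -0.14, -0.19 and -0.12. These were 5 of the 51 genes in the lower direction, against 5.08% of all tested genes, and 0 in the higher direction, against 4.84% (9.91% in both directions together). Among the other genes with the largest size in their group, Psrc1 was at -0.20 (blocked 95% interval -0.47 to 0.07), Birc5 at -0.10, Mki67 at 0.10 (-0.03 to 0.23), Anln at 0.04 and Rangap1 at -0.03. Over all 51 genes the blocked intervals ran from -0.47 at the lowest to 0.26 at the highest bound.

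KO minus WT moved with gene length. Spearman's rho with exonic length was 0.502 across the 51 genes and 0.297 across all tested genes with a length. Within the pairs numbered 1, 2 and 4 it was 0.586, 0.233 and 0.303 across the 51 genes, against 0.184, 0.100 and 0.310 across all tested genes. These are descriptions over genes that share 6 libraries, and the part of length in the differences was not tested. The annotation places the 51 genes on 18 chromosomes. Exons of 14 overlap those of another gene, and in Ube2c, Cdc25c and Lbr the overlap exceeds 10% of the exonic bases. The strand setting of the counting is not given, so reads of such partners may be included.

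Per kilobase of annotated exon, in the libraries numbered 1 and 2 the highest mean levels of the 51 genes were those of Cks1b (7.66 log2 CPM per kb), Hmgb2 (7.22) and Top2a (7.08). The lowest were those of Psrc1 (1.47), Cdc25c (2.63) and G2e3 (2.79). Psrc1 and Cdc25c, the lowest, were among the 6 genes that did not fall in the libraries numbered 4. The rest of the 6 lay higher in the libraries numbered 1 and 2, from 3.82 in Ndc80 to 5.70 in Ect2. Across the 51 genes, Spearman's rho between mean log2 CPM and the number 4 difference was -0.0082. In the libraries numbered 4, Psrc1 was at 2.28 and Cdc25c at 2.76 log2 CPM per kb, against 2.48 for G2e3. Of the B-type cyclins, Ccnb2 was above Ccnb1 per kilobase in every library. The means were 6.40 against 4.53 in the libraries numbered 4 and 6.69 against 5.43 in those numbered 1 and 2. The annotated exonic length was 1531 bases in Ccnb2 and 4217 in Ccnb1. Before division by length, Ccnb2 was below Ccnb1 in the libraries numbered 1 and 2 (mean 7.30 against 7.51 log2 CPM). In those numbered 4 it was above (7.01 against 6.60).

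Other genes of the cell cycle were read from lists of the same kind. Of 76 measured mitotic genes outside the 51, 65 fell in the libraries numbered 4, against 33.8% of all tested genes, and 2 rose, with a median of -0.58. Tubb4b, a beta-tubulin, had a log2 CPM of 7.43 in KO 4 and 7.63 in WT 4, against 9.07 to 9.15 in the other libraries. The kinase Melk was at 4.91 in KO 4 and 5.12 in WT 4, against 6.50 to 6.54. The cytokinesis motor Kif20a was at 7.05 in KO 4 and 7.22 in WT 4, against 8.06 to 8.25. The 2 that rose were Sgo1, which protects centromeric cohesion, by 0.28 (SE 0.07), and Reep4, which clears endoplasmic reticulum from chromosomes, by 0.31 (SE 0.05). They are named because they go against the rest, after their values were seen.

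S phase genes were further apart. All 43 measured fell, against 33.8% of all tested genes, with a median of -1.28, so that the level fell by 58.9%. They held 0.289% of reads in KO 4 and 0.286% in WT 4, against 0.588% to 0.626% in the other libraries. Rrm2, a subunit of ribonucleotide reductase, was at 6.07 in KO 4 and 5.98 in WT 4, against 8.42 to 8.48, a difference of -2.42 (SE 0.05, adjusted p = 9.66e-09). Cdc6, which loads the replicative helicase, fell by 2.71 (SE 0.07), and Ccne2, a cyclin of the G1-to-S transition, by 2.85 (SE 0.09). The medians of the S phase list and of the 51 genes were not compared by a test.

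Among 22 transcriptional regulators of mitotic genes, 12 fell and 3 rose, against 33.8% and 31.8% of all tested genes, with a median of -0.21. Mybl2, the MYB protein that binds MuvB in S phase, was at 5.02 in both KO 4 and WT 4, against 6.88 to 7.04 in the other libraries, a difference of -1.94 (SE 0.06, adjusted p = 8.07e-08). The repressor E2f7 fell by 1.70 (SE 0.07) and Tfdp1, a dimerisation partner of E2F proteins, by 0.95 (SE 0.05). The 3 that rose were Tfdp2, by 0.87 (SE 0.11), Rb1, by 0.79 (SE 0.09), and Nfya, by 0.19 (SE 0.07). Foxm1, which drives G2/M genes and was picked after its values were seen, fell by 0.59 (SE 0.05). Of 9 G1 cyclins and kinases, 6 fell and 3 rose, against the same 33.8% and 31.8% of all tested genes, so the share that rose was near that background. Ccne1 fell by 2.40 (SE 0.12) and Cdk2 fell by 1.12 (SE 0.06), whereas Myc, listed with them, was at 9.62 in KO 4 and 9.60 in WT 4, against 8.44 to 8.58, and rose by 1.08 (SE 0.05).

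Of 14 measured CDK inhibitors and antiproliferative genes, 5 fell (35.7%) and 6 rose, against 33.8% and 31.8% of all tested genes, with a median of 0.04. The share that fell was near that of all tested genes. Gadd45a, induced by DNA damage and other stress, was at 7.60 in KO 4 and 7.73 in WT 4, against 3.24 to 4.14 in the other libraries, a difference of 3.92 (SE 0.13, adjusted p = 8.55e-08). Sesn2, a stress-induced inhibitor of growth signalling, rose by 2.63 (SE 0.26), and Ccng2, a cyclin linked to arrest, by 0.86 (SE 0.08). Btg1, Sesn3 and Cdkn1b also rose, by 0.90, 0.75 and 0.54. The genes that fell were Tob1 (-0.70), Cdkn2d (-0.67), Cdkn2c (-0.61), Ccng1 (-0.48) and Tob2 (-0.17). Cdkn1a was at -0.38 (SE 0.17) and did not pass the test (limma adjusted p = 0.0679). Of 13 immediate early genes 6 rose and 3 fell (23.1%), against 31.8% and 33.8% of all tested genes. Atf3 rose by 3.35 (SE 0.07) and Ier2 by 0.50 (SE 0.08), and Fosb fell by 1.30 (SE 0.14). Of 7 mitochondrially encoded genes 6 fell, against 33.8% of all tested genes, with a median of -0.65, and the 7 held 0.343% of reads in KO 4 and 0.309% in WT 4, against 0.379% to 0.493%. In none of these lists was a gene called between KO and WT.

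**Figure D5:**
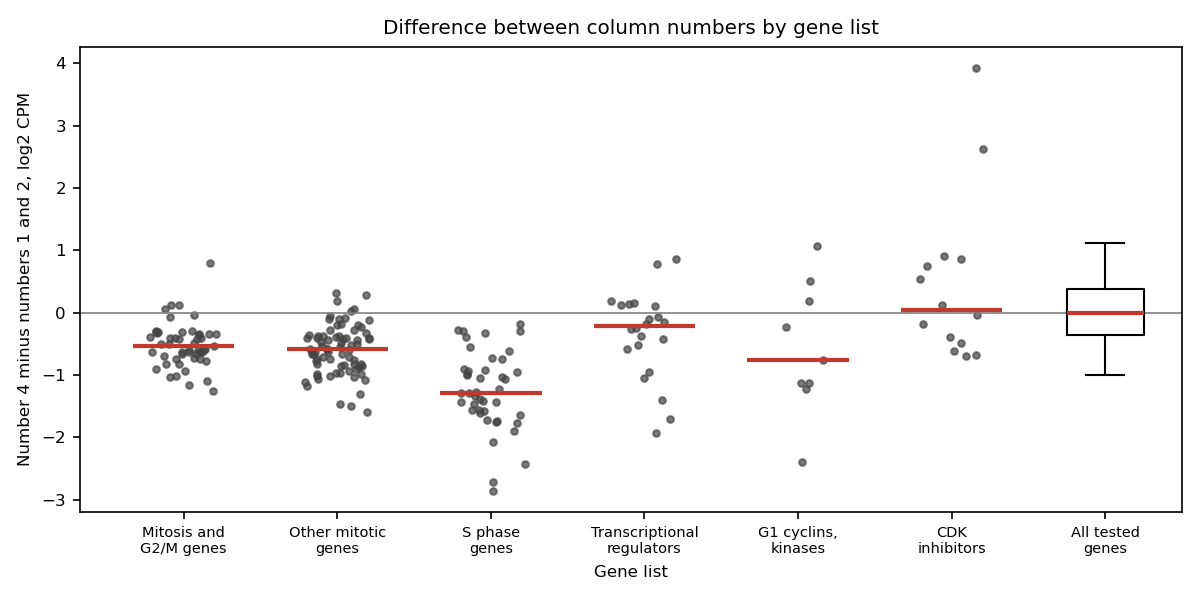
Points are genes and red lines list medians of the difference in log2 CPM between libraries numbered 4 and those numbered 1 and 2. The box at the right gives the quartiles of all tested genes, with whiskers at the 5th and 95th percentiles. The mitosis and G2/M genes centre on -0.53 and S phase genes on -1.28. The list labelled CDK inhibitors also holds antiproliferative genes and runs from -0.70 (Tob1) to 3.92 (Gadd45a).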

How the data were processed

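The deposited log2 CPM values of 11452 gene symbols in 6 libraries were used as the authors made them. Per the submitters' processing notes, Trimmomatic 0.39, STAR 2.7.3a, featureCounts (Subread 1.6.4), edgeR and build GRCm38 were used. The strand setting, annotation release and scaling of the values are not given in the sources used. On the linear scale the values summed to 939154 in KO 4 and 961041 in WT 4, against 1019867 to 1030463 in the other libraries. The values were thus not scaled to the total reads in the table alone. Whole reads could be recovered from the values (tolerance 0.01, every value whole), with 17772003 to 19988206 reads per library. No library pair agreed within sampling noise (chi-square per degree of freedom of at least 4.88). Columns numbered 1 and 2 were matched to the pools of the same number, and columns numbered 4 to their genotype.

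Differences were fitted with limma 3.58.1 in R 4.3.3 (trended variance, two-sided) on the 11269 genes that reached a log2 CPM of 0 in 3 or more libraries. The 183 others were dropped. P-values were Benjamini-Hochberg adjusted over all tested genes, with a threshold of 0.05. The fits were KO minus WT, number 4 minus numbers 1 and 2 adjusted for genotype, and that number contrast within each genotype with the interaction. Log2 differences include the authors' prior and understate changes of weak genes. For 3 libraries against 3 the smallest exact permutation p is 0.1. The fits were tested on simulated data. Level per length used the union of exons in GENCODE on GRCm38.

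Same-numbered KO and WT libraries deviated together from their genotype means (r = 0.744, 0.784 and 0.921 across genes for numbers 1, 2 and 4), so the numbers were taken to pair them, from the data and not from a label. The crossed values were nearly as high (0.617 for KO 2 and WT 1, 0.687 for KO 1 and WT 2). Libraries 1 and 2 both lie opposite number 4, so the support for pairing 1 and 2 is weaker than for 4.

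The 51 genes and all lists were chosen with earlier results of these data known. Named genes were Myo1e, the 2 smallest p and the largest p for number 4 and the largest KO minus WT in each role group, all genes not called lower, and up to 3 genes per other list. Others named with values illustrate their group and were chosen after their values were seen. Alternatives covered filters, pseudocounts, scaling, voom, terms for the number, and leaving out libraries.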

Additional observations from a re-analysis of the deposited data

Results flagged for a closer look

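Ndc80, a subunit of the outer kinetochore complex, was the gene among the 51 in which the library numbered 4 lay below both others in KO and above both others in WT. Each genotype has 1 such library, so neither shift is replicated. KO 4 (6.37 log2 CPM) lay below KO 1 and KO 2 (6.51 and 6.52), and WT 4 (6.62) lay above WT 1 and WT 2 (6.46 and 6.60), in the case of WT 2 by little. The number 4 difference in KO minus that in WT was -0.24 (95% interval -0.52 to 0.05). The test of this difference did not pass (limma, unadjusted p = 0.0917, adjusted p = 0.997). No outliers were looked for within a genotype, which has 3 libraries.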

How the results depend on the processing

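Under the alternatives tried, no call between KO and WT appeared for any of the 51 genes, and no called gene changed direction. In the replicate block fit, which pairs libraries by column number, 0 genes were called and the median KO minus WT was -0.05. The block changed no call of the 51 genes. Leaving out 1 library at a time moved that median between -0.19 (without WT 4) and 0.15 (without KO 4), since the libraries numbered 4 are then unequally shared. Number 4 against 1 and 2 gave 43 to 45 genes lower, 1 to 2 higher and a median of -0.57 to -0.50. Within KO, leaving out a library numbered 1 or 2 gave 35 to 45 lower and 0 to 1 higher, and within WT 41 to 44 lower and 1 to 2 higher. Quantile normalization gave 3 higher and a median of -0.45, with 3 higher within KO and 2 within WT. Scaling to total reads, chosen after seeing the data, shifted all tested genes to a median of 0.115 and gave 4 higher, a median of -0.42 and 2 higher within KO. Relative to all genes the median was then -0.53, as in the fit reported. Of 420 values of named genes for number 4, 6 lost their call and 6 gained one. The edgeR count test was not run, because the deposited unit is log2. Each genotype has 1 library numbered 4, which limits the test of a difference between genotypes.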
